A study of Mus musculus with 160 samples.

Results

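Distal colon samples were divided by whether they held RNA of cornifying squamous epithelium, such as the skin at the anal opening. This was read from Krt1, a keratin of the cornifying layers of epidermis that the simple columnar epithelium of the colon lacks. Krt1 alone does not give the site that the squamous RNA came from. Krt1 was expressed per sample as CPM (the raw count of the gene over the total count of the file, as counts per 1000000). Samples with a Krt1 CPM of 10 or more formed the Krt1-high group, samples below 1 CPM formed the Krt1-low group, and samples between were left out. Of 160 samples, 139 were used, 34 Krt1-high and 105 Krt1-low, and 21 lay between. The groups were thus made from a measured value, so Krt1 is given as a description, without a test. Genes of squamous epithelium and its appendages come from the same tissue as Krt1, so their values, counts of called genes and slopes on Krt1 restate that choice and carry no p-value.

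The study profiled RNA from the distal piece of colon of mice that were homozygous knockouts for a predicted driver gene of inflammatory bowel disease, or wild type. The Dok3 line gave 26 knockouts and 21 wild types, the Dock2 line 18 knockouts and 24 wild types, the Gpsm3 line 20 of each, and the Nckap1l line 16 knockouts and 15 wild types. The strain was C57BL6/J for Nckap1l, Dock2 and Gpsm3 and 129 for Dok3, the Dok3 and Gpsm3 mice were all male, and the other lines held both sexes. Each line was run through a colitis course in which dextran sulfate sodium (DSS, at 3% for Gpsm3 and Dock2, 3.5% for Dok3, whose earliest experiments used less, and a dose below 3% for Nckap1l) was given for 5 days, followed by water for 5 days, or 7 for Nckap1l, with tissue taken on day 10, or day 12 for Nckap1l. The mice were 8 to 10 weeks old. The labels do not say which samples received DSS, so treated and untreated mice of a line stand together here. The targeted gene was checked first. Its median in knockout and wild type was 14.8 and 27.6 CPM for Nckap1l, 22.4 and 35.7 for Dock2, 0.556 and 3.15 for Gpsm3 and 3.3 and 3.67 for Dok3. The ranges of knockout and wild type overlapped in all 4 lines, in counts that sum over all exons of the gene. Total counts were between 4344988 and 19993833 per sample, and between 9400529 and 18498086 in the Krt1-high group.

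The colon ends at the anal canal, where the single layer of columnar absorptive and mucus-secreting cells gives way to stratified squamous epithelium, first moist and then cornified, and to hair-bearing skin with sebaceous glands. The smooth muscle of the gut wall is joined there by the external anal sphincter, a ring of striated muscle that contracts at will. Squamous epithelium divides in its basal layer, marked by Krt5, Krt14 and the transcription factor Trp63, and matures into layers that hold Krt1, Krt10 and the proteins of the cornified envelope.

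Krt1 separated the samples widely. In the Krt1-high samples it was 12.96 CPM at the lowest, 1222 at the median and 4896 at the highest, against 0, 0.139 and 0.962 CPM in the Krt1-low samples. Around the upper bound, the lowest Krt1-high samples had 12.96 (Dok3 knockout 14), 17.2 (Dok3 wild type 14) and 150 CPM (Nckap1l wild type 15), and the highest samples left out had 4.22 and 3.23 CPM. Around the lower bound, the highest Krt1-low samples had 0.962 and 0.949 CPM and the lowest samples left out had 1.07 and 1.14 CPM. The lower bound thus ran through a continuous range of values, while few samples lay near the upper bound.

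Acta1, the actin of striated muscle fibres, was high in the same samples. It was 11.7 CPM at the lowest, 959 at the median and 3213 at the highest in the Krt1-high samples, and 2.12, 5.76 and 53.9 CPM in the Krt1-low samples. The difference was 7.29 on the log2 scale (SE 0.228, adjusted p = 4.75e-63), and every Krt1-high sample lay above the Krt1-low median. Acta1 reached 100 CPM in 30 of the 34 Krt1-high samples and in none of the 105 Krt1-low samples. It was between 10 and 100 CPM in the other 4 Krt1-high samples and in 15 Krt1-low samples.

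**Figure D1:**
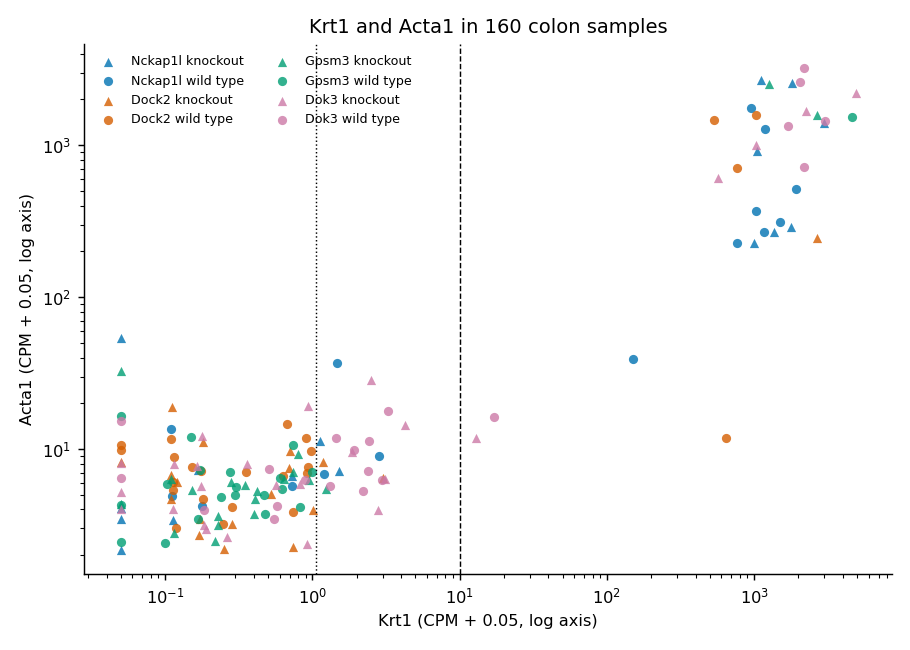
Krt1 against Acta1 in all 160 samples, each as CPM plus 0.05 on a log axis, coloured by line, with triangles for knockout and circles for wild type. The dotted and dashed vertical lines mark Krt1 of 1 and 10 CPM, and 30 of the 34 samples right of the dashed line have an Acta1 CPM of 100 or more.

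Within the 34 Krt1-high samples the log2 levels of Krt1 and Acta1 were correlated, with r = 0.74 (permutation p = 4e-05, adjusted p = 0.00032 over 8 relations) and rho = 0.509 (permutation p = 0.00216, adjusted p = 0.0173). Without the 2 samples farthest from the median Krt1, r was 0.526. The relation did not hold within the first run of Nckap1l sample numbers, where r was 0.0901 and rho 0.225 over 13 samples (permutation p = 0.766 and 0.46, adjusted p = 0.766 and 0.46). That run held both sexes, which differed in Acta1. Its 8 Krt1-high females had 227.2 to 514 CPM of Acta1 and its 5 males 915.4 to 2679 CPM, with Krt1 of 761.2 to 1925 and 952.3 to 1820 CPM. Among the females alone r was 0.641 and rho 0.714 (exact permutation p = 0.0826 and 0.0576, adjusted p = 0.165 and 0.0969), and r was 0.100 without the 2 farthest samples, while 5 males are too few for a correlation. Within the Dok3 line it was r = 0.974 and rho = 0.773 over 11 samples (permutation p = 0.00055 and 0.00771, adjusted p = 0.0022 and 0.0308), and r was 0.631 without the 2 farthest samples. The skin and muscle markers thus varied together in the Dok3 line, where weak samples set much of the range, and no relation passed the test in the first Nckap1l run or among its females. The remaining relations set Krt1 against Slc26a3, a gene of absorptive colon cells, and none passed. Over all Krt1-high samples, the first Nckap1l run, its females and Dok3, r was -0.238, -0.565, -0.461 and -0.476. Their permutation adjusted p were 0.221, 0.123, 0.281 and 0.196, and those of rho were 0.0969 or more. Genes fixed as squamous made up 0.239% of all counts at the lowest, 1.12% at the median and 3.29% at the highest of the Krt1-high samples, against 0.133%, 0.304% and 0.462% in the Krt1-low samples. Striated muscle genes made up 0.0313%, 1.85% and 5.88% in the Krt1-high samples and 0.00877%, 0.0317% and 0.129% in the Krt1-low samples.

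Some libraries stood apart. Dock2 wild type 15, Krt1-high at 647 CPM, had almost no muscle (Acta1 11.8 CPM), no Krt71 and 0.497 CPM of Krt79, with more of the mucosal keratin Krt13 (817 CPM) than of the epidermal keratin Krt10 (187 CPM). Dock2 knockout 13 had the highest Krt14 (4946 CPM), Krt6a (3630 CPM) and Krt16 (2426 CPM) of the Krt1-high samples, together with 366 CPM of Muc5b, a mucin of glands outside the colon, and 96.5 CPM of Pgr, the progesterone receptor. Nckap1l knockout 4 had 623 CPM of Muc5b. All 3 of these samples were from females. Whether their squamous RNA came from the anal opening or from another site was not tested. Gpsm3 knockout 14, a male in the Krt1-low group, held 9127 CPM of Svs2, a seminal vesicle protein. Nckap1l knockout 9, also Krt1-low, held muscle RNA without skin RNA, at 53.9 CPM of Acta1 and 633 CPM of the giant sarcomere protein Ttn with Krt1 at 0. Dok3 knockout 9, Krt1-low too, had 0.127 CPM of the posterior gene Hoxd13, where the next lowest sample, Dok3 knockout 17, had 35.8 CPM. It also held the highest Slc9a3 (327 CPM) and Cdx2 (178 CPM), and was kept in the main fit. Results that rest on the 4 samples with Muc5b, Bpifb9b or Svs2 over 10 CPM are given with and without them.

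The Krt1-high samples were spread unevenly over the lines. They were 15 of 31 samples of Nckap1l (48.4%), 11 of 47 of Dok3 (23.4%), 5 of 42 of Dock2 (11.9%) and 3 of 40 of Gpsm3 (7.5%). Within Nckap1l, 13 of the 14 samples in the first run of label numbers were Krt1-high (92.9%), against 11.1% and 12.5% in the other runs, whose meaning the labels do not give. By genotype, 7 of 16 Nckap1l knockouts and 8 of 15 wild types were Krt1-high, a difference of -9.6 percentage points (Fisher's exact test, two-sided, adjusted p = 0.966). The difference between knockout and wild type was -11.1 points in Dock2 (1 of 18 against 4 of 24, exact test, adjusted p = 0.966), 5.0 points in Gpsm3 (2 of 20 against 1 of 20, exact test, adjusted p = 1.0) and -9.3 points in Dok3 (5 of 26 against 6 of 21, exact test, adjusted p = 0.966). With so few Krt1-high samples a line, these tests could find only large differences. Among Nckap1l mice, 9 of 12 females and 6 of 19 males were Krt1-high, a difference of 43.4 points (Fisher's exact test, p = 0.029, adjusted p = 0.058 over 2 lines). The sexes were spread unevenly over the runs. In the first run 8 of 9 females and 5 of 5 males were Krt1-high, in the second, all male, 1 of 9, and in the third 1 of 3 females and 0 of 5 males, so the difference between the sexes cannot be told apart from that between the runs. The Dock2 difference was -3.6 points (exact test, adjusted p = 1.0).

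Krt1-high and Krt1-low samples were compared over all genes, with line and genotype as covariates. Of 19866 genes tested besides Krt1, 6462 were higher in the Krt1-high samples (32.5%) and 6726 were lower (33.9%) at an adjusted p under 0.05. Most of these differences were small. Of all genes tested, 1756 (8.84%) were called higher by over 2-fold and 555 (2.79%) were called lower by over 2-fold, and 570 (2.87%) were called higher by over 16-fold. The median difference of all genes was -0.01 on the log2 scale. In 50 genes (0.252%) every Krt1-high sample lay above every Krt1-low sample, and in 0 genes did every Krt1-high sample lie below. The share of genes called is the base against which the lists below are read. In these whole-tissue samples fewer cells of a type and less RNA per cell cannot be told apart, and a gain of RNA from one tissue lowers the share of all others.

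**Figure D2:**
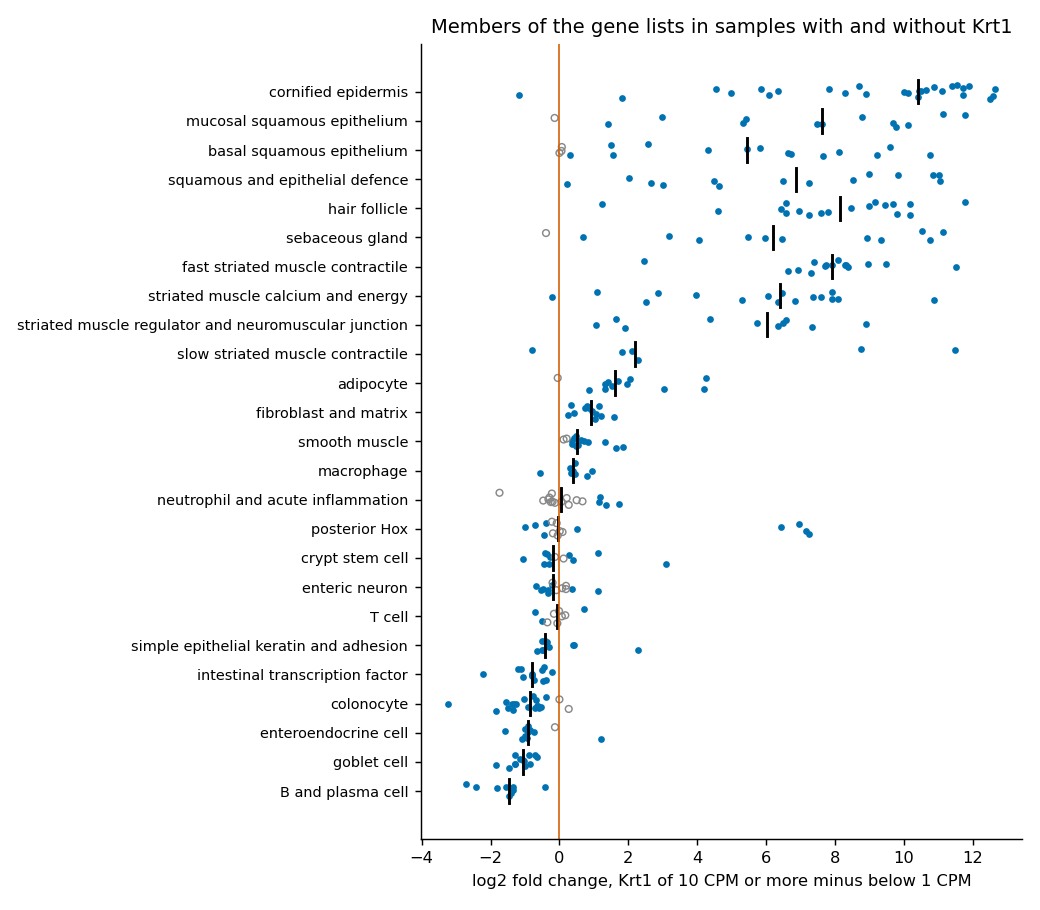
Log2 fold change of every tested member of 25 gene lists between Krt1-high and Krt1-low samples, with filled points for an adjusted p under 0.05, open points for the rest and a black bar at each list's median. Squamous, skin and striated muscle lists lie far to the right, with medians up to 10.40, and the lists of colon epithelium lie between 0 and -1.06.

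Genes of the cornified epidermis led the difference. Of 27 tested, 26 were higher and 1 was lower, with a median of 10.40 on the log2 scale, and 15 of the 27 did not overlap between the groups. Rptn, repetin of the cornified envelope, was 5.39 CPM at the lowest, 518 at the median and 1543 at the highest in the Krt1-high samples and 0, 0.0627 and 0.608 CPM in the Krt1-low samples. Hrnr, hornerin, was 2.67, 200 and 1049 CPM against 0, 0 and 0.357 CPM. Both were thus at counting noise in colon without skin. Krt10, the partner keratin of Krt1, was 13.9, 1083 and 4023 CPM against 1.27, 2.95 and 5.58 CPM. The exception was Tgm3, a transglutaminase that cross-links the cornified envelope, which the colon itself expresses strongly. Tgm3 was 62.5, 627 and 1282 CPM in the Krt1-high samples and 6.48, 1427 and 3212 CPM in the Krt1-low samples, and all 34 Krt1-high samples lay below the Krt1-low median.

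The basal and the moist mucosal squamous layers came with the cornified layer. Of 17 basal genes, 14 were higher and 0 lower (median 5.46), and of 13 mucosal genes, 12 were higher and 0 lower (median 7.63). Krt5 of the basal layer was 6.82, 678 and 2345 CPM against 0, 0.412 and 7.07 CPM. Krt4, a keratin of moist squamous epithelium, was 1.85, 400.5 and 802.9 CPM against 0, 0.129 and 0.710 CPM. Krt13, the partner of Krt4, was 6.90, 399.5 and 2329 CPM, but reached 70.4 CPM among the Krt1-low samples. Krt13 therefore overlapped between the groups while Krt4 did not. On the length-scaled TPM scale, which allows levels of different genes to be compared, the median sample of the Krt1-high group held 1532 TPM of Krt10, 1021 of Krt14, 957 of Krt5, 846 of Krt1, 704 of Krt13 and 569 of Krt4. The simple-epithelium keratins of the colon stood above all of them, at 3162 TPM for Krt8 and 2531 TPM for Krt19.

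Skin appendages were present too. All 18 hair follicle genes tested were higher (median 8.14), as were 11 of 12 sebaceous gland genes with 0 lower (median 6.21). Krt71, of the inner root sheath of the hair follicle, was 0, 47.5 and 292 CPM in the Krt1-high samples and did not exceed 0.0704 CPM in the Krt1-low samples. Krt79, of the sebaceous duct, was 0.497, 245 and 712 CPM against 0, 0.0647 and 0.414 CPM. Of 4 melanocyte genes tested, 3 were higher and 0 lower, among them Dct, an enzyme of melanin synthesis, at 0.0838, 1.59 and 5.00 CPM against 0, 0.294 and 0.960 CPM. Of 4 genes of Langerhans and dendritic epidermal T cells, 3 were higher and 1 was lower. The lower member was Epcam, which colon epithelium expresses strongly, and the Langerhans cell lectin Cd207 was 1.30 CPM at the median against 0.349 CPM.

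Antimicrobial and barrier genes of squamous epithelium rose with the skin. All 14 tested were higher (median 6.87). The beta-defensin Defb6 was 0.0842, 25.5 and 104 CPM in the Krt1-high samples and at most 0.0860 CPM in the Krt1-low samples. Slpi, a protease inhibitor of mucous surfaces, was 30.9, 91.6 and 286 CPM against 2.11, 16.5 and 186 CPM. Slpi is thus a gene that both tissues make, and its groups overlapped.

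Striated muscle genes rose with the skin genes. All 15 tested genes of the fast contractile apparatus were higher (median 7.91), as were 15 of 16 genes of calcium handling and energy supply (median 6.39) and all 10 of muscle regulators and the neuromuscular junction (median 6.04). Ttn was 87.7 CPM at the lowest, 10790 at the median and 33500 at the highest in the Krt1-high samples against 13.5, 23.6 and 633 CPM. Its difference was 8.31 on the log2 scale (SE 0.246, adjusted p = 5.86e-66). The ranges of the groups overlapped for Ttn, since the lowest Krt1-high samples lay below the highest Krt1-low sample. Mylpf, the fast phosphorylatable myosin light chain, was 1.49, 217 and 711 CPM against 0.341, 0.782 and 12.0 CPM (log2 difference 8.09, SE 0.227, adjusted p = 1.1e-68). Myf6, a transcription factor of differentiated muscle, was 0, 6.44 and 23.4 CPM and at most 0.298 CPM in the Krt1-low samples, so it passed the filter on low counts only through the Krt1-high samples. The count of 10 muscle regulator and junction genes includes Myf6. All members of that list together held 9.92 CPM at the Krt1-low median. That count and its median thus describe the groups and are not read as a test. Ryr1, the calcium release channel of skeletal muscle, differed by 7.90 (SE 0.241, adjusted p = 2.67e-64).

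The myosin heavy chains gave the fibre types. In length-scaled units, the median Krt1-high sample held 558 TPM of Myh1 (type 2X fibres), 452 TPM of Myh8 (the perinatal form), 49.9 TPM of Myh2 (type 2A), 28.2 TPM of Myh4 (type 2B) and 0.125 TPM of Myh7 (slow fibres). Between the Krt1-high samples Myh4 ran from 0.318 to 980 TPM, Myh1 from 2.35 to 2560 TPM and Myh8 from 3.04 to 1587 TPM. Among 6 slow-fibre genes tested, 5 were higher and 1 was lower, with a median of 2.20. Tnni1, the slow troponin I, was the lower member, at 4.96, 23.8 and 45.6 CPM against 0.826, 42.3 and 75.7 CPM (log2 difference -0.81, SE 0.142, adjusted p = 2.45e-07), and Cox7a1 of the energy list was also lower (log2 difference -0.23, SE 0.0998, adjusted p = 0.0322). Both had medians over 10 CPM in colon without striated muscle. The call of Cox7a1 was lost with the inflammation mean in the fit (log2 difference -0.03, adjusted p = 0.767), with sample-number runs in place of line (-0.15, adjusted p = 0.259), without the first Nckap1l run (-0.19, adjusted p = 0.114) and without the 4 samples with Muc5b, Bpifb9b or Svs2 over 10 CPM, where 0 genes of its list were lower.

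**Figure D3:**
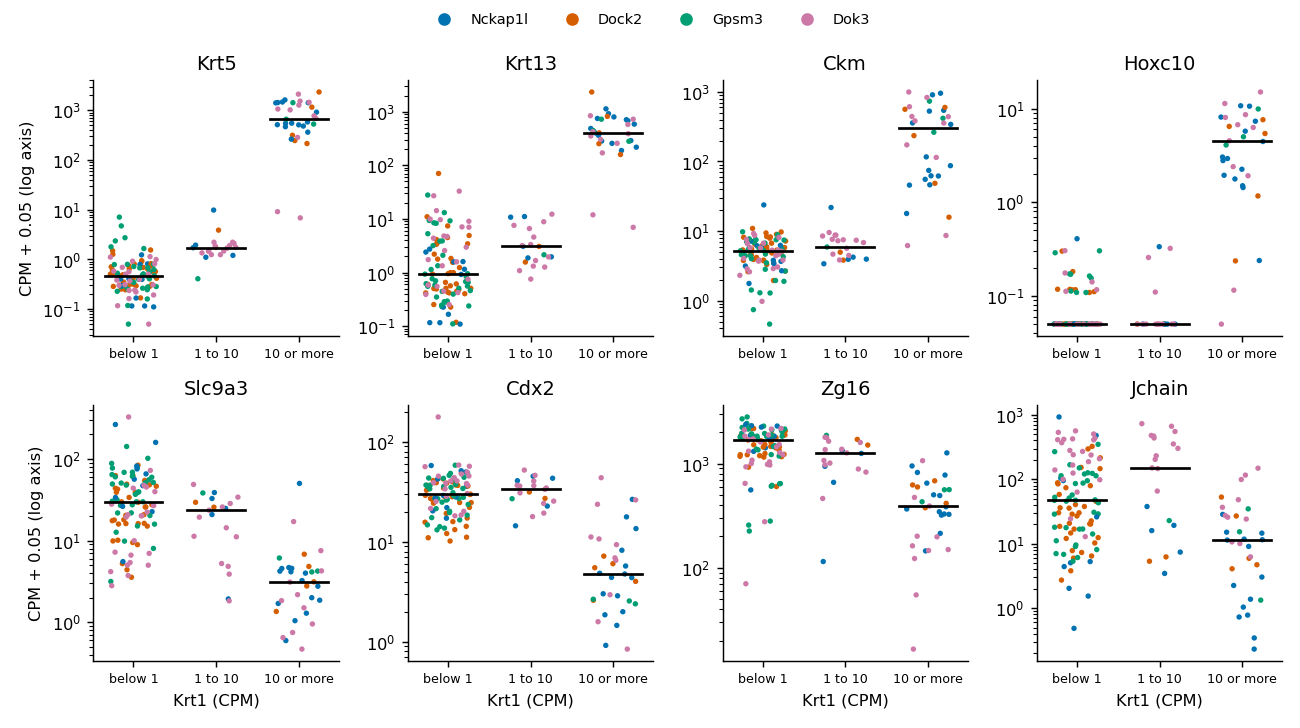
CPM plus 0.05 on a log axis of 8 genes in each of the 160 samples, grouped by Krt1 CPM (below 1, 1 to 10, 10 or more) and coloured by line, with a bar at each median. Krt5, Krt13, Ckm and Hoxc10 are higher, and Slc9a3, Cdx2, Zg16 and Jchain lower, at 10 CPM or more.

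The start regions of genes from the 3 tissues are shown because these genes carry the difference. Each line holds the 120 bases before the RefSeq transcription start (build GRCm38.p6), read 5′ to 3′ on the strand of the gene. Capitals mark matches on either strand to 4 motifs: TATAAA, the AP-1 element TGANTCA that squamous genes often use, the CArG box bound by serum response factor, and the GC box GGGCGG. The regions are chr3:93393579-93393698 (plus strand) for Rptn, chr3:93319629-93319748 (plus) for Hrnr, chr8:123894776-123894895 (minus) for Acta1, chr13:74121293-74121412 (plus) for Slc9a3 and chr12:31438099-31438218 (plus) for Slc26a3.
Rptn: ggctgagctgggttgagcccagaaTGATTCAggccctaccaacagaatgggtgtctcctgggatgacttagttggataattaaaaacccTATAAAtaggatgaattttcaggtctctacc
Hrnr: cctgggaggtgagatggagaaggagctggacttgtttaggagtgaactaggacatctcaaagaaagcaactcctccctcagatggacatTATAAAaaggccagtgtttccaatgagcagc
Acta1: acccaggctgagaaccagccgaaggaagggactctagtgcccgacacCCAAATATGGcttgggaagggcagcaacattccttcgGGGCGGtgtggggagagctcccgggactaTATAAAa
Slc9a3: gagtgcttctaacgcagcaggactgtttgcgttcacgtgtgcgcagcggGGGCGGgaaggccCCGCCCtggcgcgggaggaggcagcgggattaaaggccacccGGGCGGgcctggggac
Slc26a3: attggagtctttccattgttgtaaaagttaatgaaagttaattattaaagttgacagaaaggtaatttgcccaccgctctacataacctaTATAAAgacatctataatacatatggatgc
TATAAA was found in 6.34% of the 32851 promoters in the table, TGANTCA in 3.41%, the CArG box in 0.749% and GGGCGG in 26.5%, over windows of the same length. The matches describe letters and were not tested as binding sites.

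Genes of the colon epithelium were lower. Of 20 absorptive colonocyte genes, 0 were higher and 18 lower, with a median of -0.84 on the log2 scale. Slc9a3, the apical sodium-proton exchanger NHE3, fell most among them. It was 0.419 CPM at the lowest, 3.07 at the median and 50.2 at the highest in the Krt1-high samples against 2.75, 29.8 and 327 CPM. The difference was -3.23 (SE 0.331, adjusted p = 2.07e-16), and the highest Krt1-low value was that of Dok3 knockout 9, which stood apart. Of the 34 Krt1-high samples, 33 lay below the Krt1-low median, and the ranges overlapped. Slc20a1, a phosphate transporter, was 53.9, 113 and 353 CPM against 59.6, 458 and 1106 CPM (log2 difference -1.84, SE 0.207, adjusted p = 2.22e-14), with 34 of 34 below the Krt1-low median. Hsd11b2, which shields the mineralocorticoid receptor from corticosterone, differed by -1.26 (SE 0.136, adjusted p = 3.02e-15), and Slc26a3, the chloride-bicarbonate exchanger, by -1.31 (SE 0.210, adjusted p = 2.15e-08).

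The colonocyte genes did not move by one factor. The sodium channel subunits Scnn1b and Scnn1g, which work in the distal colon, were the members that did not pass the test. Scnn1g was 2.99, 14.97 and 49.9 CPM against 2.25, 13.1 and 56.3 CPM (log2 difference 0.27, adjusted p = 0.201), and Scnn1b differed by 0.00 (adjusted p = 0.978). With the inflammation mean in the fit both were called higher, at 0.51 (adjusted p = 0.00637) and 0.23 (adjusted p = 0.0386). Krt20, a keratin of surface colonocytes, differed by only -0.39 (SE 0.107, adjusted p = 0.00072). Among the simple-epithelium keratins and adhesion genes, 8 of 11 were lower and 3 higher (median -0.42), with Krt8 at -0.36 (adjusted p = 1.01e-05) and Epcam at -0.50 (adjusted p = 6.79e-13). Krt23 went the other way, from 4.54 CPM at the Krt1-low median to 24.2 CPM (log2 difference 2.28, SE 0.164, adjusted p = 1.08e-26).

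Secretory cells fell as well. All 13 goblet cell genes were lower, with a median of -1.06. Zg16, a lectin of the mucus layer, was 16.5, 388 and 1267 CPM against 70.2, 1667 and 2803 CPM (log2 difference -1.84, SE 0.183, adjusted p = 4.9e-17), with 34 of 34 below the Krt1-low median. Muc2, the main mucin of colonic mucus, differed by -1.29 (SE 0.153, adjusted p = 3.15e-13). Of 11 enteroendocrine genes, 9 were lower and 1 was higher (median -0.92). Insl5, a peptide hormone of the enteroendocrine L cells of the hindgut, was 3.18, 11.8 and 47.1 CPM against 7.44, 43.9 and 105 CPM (log2 difference -1.59, SE 0.148, adjusted p = 7.17e-19). Crypt stem cell genes did not share a direction, with 4 of 12 higher and 6 lower (median -0.20), and Lgr5, the stem cell receptor, was 12.8 CPM at the median in the Krt1-high samples and 12.6 CPM in the Krt1-low samples (log2 difference -0.13, adjusted p = 0.607).

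The transcription factors of intestinal identity fell together. All 13 were lower, with a median of -0.79. Cdx2, the master regulator of intestinal epithelium, fell most, at 0.796, 4.76 and 43.8 CPM against 10.1, 29.9 and 178 CPM (log2 difference -2.22, SE 0.202, adjusted p = 2.2e-19). The highest Krt1-low value of Cdx2 was again that of Dok3 knockout 9. Cdx1 differed by -0.74 (SE 0.0764, adjusted p = 2.59e-16), Hnf4a by -0.79 (SE 0.0928, adjusted p = 2.28e-13) and Foxa3 by -1.12 (SE 0.0886, adjusted p = 2.36e-23). Cdx2 and Slc9a3 were therefore lower by more than the medians of their lists.

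Posterior Hox genes encode position along the trunk. Of 15 tested, 5 were higher and 4 lower, with a median of -0.05. These shares lie near those of all genes (32.5% and 33.9%). The 5 higher genes were the 4 tested Hoxc genes, whose calls are not read as a result, and Hoxd9. The 4 tested genes of the Hoxc cluster were near absent from the Krt1-low samples and passed the filter on low counts only through the Krt1-high samples, so their levels are given without a fold, and Hoxc12 did not pass. Hoxc10 was 0 CPM at the lowest, 4.44 at the median and 14.96 at the highest of the Krt1-high samples, against 0, 0 and 0.358 CPM. Hoxc9 was 0.0651, 2.86 and 8.75 CPM against 0, 0 and 0.251 CPM. Hoxc11 was 0, 2.34 and 6.67 CPM against 0, 0 and 0.120 CPM. Hoxc13, a regulator of hair keratins, was 0, 1.55 and 9.59 CPM and had 1 count over all 105 Krt1-low samples. In the other clusters Hoxb9 (-0.99, adjusted p = 3.98e-19), Hoxb13 (-0.70, adjusted p = 1.95e-07), Hoxa13 (-0.46, adjusted p = 2.34e-07) and Hoxa10 (-0.38, adjusted p = 1.6e-10) were lower, Hoxd9 was higher (0.51, adjusted p = 5.73e-06), and Hoxa9, Hoxa11 and Hoxd10 to Hoxd13 did not pass the test.

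**Figure D4:**
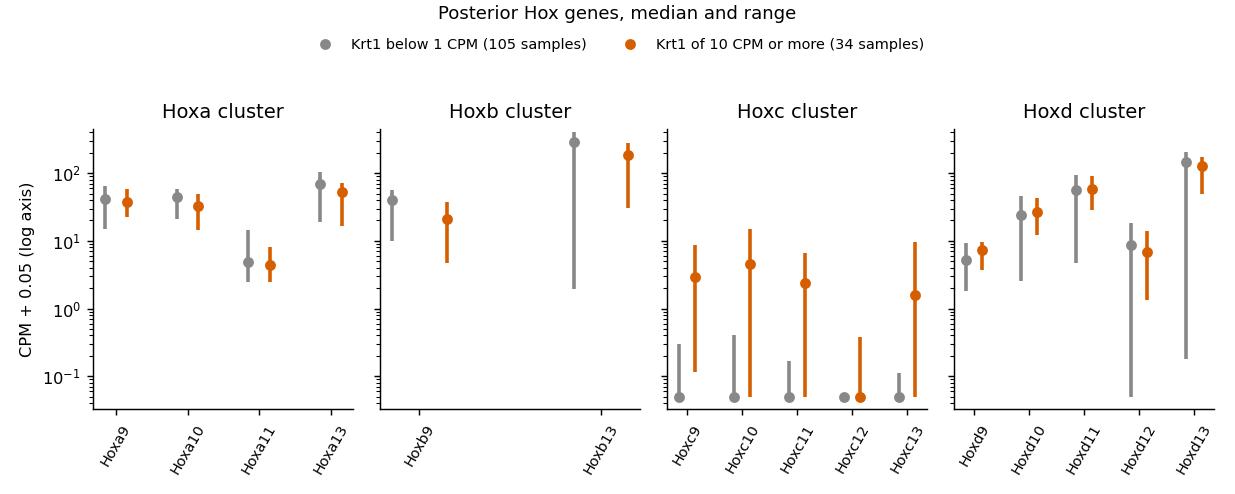
CPM plus 0.05 on a log axis of posterior Hox genes by cluster, with a point at the median and a line from the lowest to the highest sample, grey for the 105 Krt1-low and orange for the 34 Krt1-high samples. The medians of Hoxc9, Hoxc10, Hoxc11 and Hoxc13 are 0 in the Krt1-low and 2.86, 4.44, 2.34 and 1.55 CPM in the Krt1-high samples. The ranges of the 2 groups overlap in every cluster, the Hoxc cluster included.

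Genes of connective tissue and fat rose, and nerve and pacemaker genes moved little. Whether this RNA came from the colon wall or from the tissue that came with Krt1 was not tested. All 12 fibroblast and matrix genes were higher (median 0.92). Dcn, the matrix proteoglycan decorin, was 392, 802 and 1476 CPM against 119, 330.0 and 1236 CPM (log2 difference 1.22, SE 0.0972, adjusted p = 2.16e-23). Of 12 adipocyte genes, 11 were higher and 0 lower (median 1.61), with the lipid-droplet protein Plin4 at 1.95 (SE 0.134, adjusted p = 2.55e-28) and the hormone leptin, Lep, at 4.27 (SE 0.304, adjusted p = 5.31e-27). Of 14 smooth muscle genes, 12 were higher and 0 lower, but by less (median 0.52). Myh11, smooth muscle myosin, was 1028, 3057 and 5133 CPM against 419, 2021 and 3629 CPM (log2 difference 0.63, SE 0.122, adjusted p = 2.77e-06), and Actg2, the enteric smooth muscle actin, did not pass the test (0.21, adjusted p = 0.145). Of 13 enteric neuron genes, 2 were higher and 6 lower (median -0.20). Nos1, the neuronal nitric oxide synthase, which striated muscle also makes, was among the higher (1.13, SE 0.119, adjusted p = 8.23e-16), and the neuropeptide Vip was lower (-0.68, SE 0.132, adjusted p = 3.07e-06). Of 12 genes of enteric glia and Schwann cells, 6 were higher and 2 lower (median 0.17). Of 6 genes of the interstitial cells of Cajal, 1 was higher and 3 lower (median -0.29), with Kit at -0.67 (SE 0.0855, adjusted p = 8.63e-12).

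Immune genes did not move as a block. All 9 B and plasma cell genes were lower, with a median of -1.47, and of -0.90 with 8 lower when the first run of Nckap1l numbers was left out. Jchain, which joins the chains of secreted IgA, was 0.181, 11.4 and 149 CPM against 0.435, 47.0 and 928 CPM (log2 difference -2.71, SE 0.408, adjusted p = 3.2e-09), and -2.18 (adjusted p = 2.57e-05) without that run. Of 9 T cell genes, 1 was higher and 2 lower (median -0.06). Of 9 macrophage genes, 8 were higher and 1 was lower (median 0.40), and with the inflammation mean in the fit 3 were higher and 1 lower (median 0.04). Mrc1, a receptor of resident tissue macrophages, differed by 0.79 (SE 0.120, adjusted p = 4.44e-09) and Cx3cr1, of gut-resident macrophages, by -0.57 (SE 0.108, adjusted p = 1.65e-06).

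Inflammation was measured beside the groups. Its level was taken as the mean log2 CPM of 14 neutrophil and acute inflammation genes, and was 0.72 at the lowest, 1.69 at the median and 6.57 at the highest in the Krt1-high samples, against -0.18, 0.55 and 7.57 in the Krt1-low samples. The medians thus differed and the ranges overlapped. Of 17 genes of that list, 4 were higher and 0 lower (median 0.06), a smaller share higher than among all genes. With sample-number runs in place of line 2 were higher and 1 lower (median -0.15), and without the 4 samples with Muc5b, Bpifb9b or Svs2 over 10 CPM also 2 and 1 (median -0.02). Cxcl5, a neutrophil-attracting chemokine that epithelium makes, was 4.25, 12.96 and 414 CPM against 0.529, 3.79 and 265 CPM (log2 difference 1.74, SE 0.496, adjusted p = 0.00125), and all 34 Krt1-high samples lay above the Krt1-low median. The calprotectin subunit S100a9 was also above the Krt1-low median in all 34, at 3.10, 11.0 and 834 CPM against 0, 1.45 and 3944 CPM, yet its fitted difference was -0.25 (SE 0.776, adjusted p = 0.794), against 0.64 with the inflammation mean in the fit (adjusted p = 0.0038) and 3.2 with limma-voom. The highest Krt1-low value was thus above every Krt1-high value. Whether DSS treatment differed between the groups was not tested, since the labels do not give it. With the inflammation mean in the fit, 6300 genes were higher and 7051 lower, and the colonocyte median was -0.72.

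The predicted driver genes of inflammatory bowel disease were followed as a list. Of 11 measured, 1 was higher and 2 lower (median -0.12). Slamf1, a lymphocyte receptor, differed by -0.58 (SE 0.252, adjusted p = 0.0371), and Tnfaip3, the NF-kappaB inhibitor A20, by -0.30 (SE 0.0884, adjusted p = 0.00181). The call of Slamf1 was lost with sample-number runs in place of line (-0.52, adjusted p = 0.0748), without the first Nckap1l run (-0.39, adjusted p = 0.217) and without the 4 samples with Muc5b, Bpifb9b or Svs2 over 10 CPM. Nckap1l differed by 0.03 (adjusted p = 0.88), Dock2 by -0.12 (adjusted p = 0.554), Gpsm3 by 0.07 (adjusted p = 0.761) and Dok3 by -0.32 (adjusted p = 0.206). With the inflammation mean in the fit, 8 of the 11 were lower and 1 was higher (median -0.44). Fpr1, a member of this list, is also 1 of the genes averaged into that mean, so its value in that fit is no separate result. The mean itself differed between the groups, with medians of 1.69 and 0.55, so it can carry part of the group difference.

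Outside the lists, the gene raised most was ENSMUSG00000081977, which has no symbol in the annotation used, at 7.24, 830.0 and 2961 CPM against 0, 0.0552 and 0.575 CPM. Calm4, a calmodulin of epidermis and the next in order, was 2.69, 268 and 923 CPM against 0, 0 and 0.460 CPM, and Myh8 was 11.4, 1757 and 5740 CPM against 0, 0.133 and 7.20 CPM. The genes lowered most were of a different kind. Cel, Cpb1 and Pnliprp1, enzymes of the exocrine pancreas, differed by -4.20, -4.17 and -3.45, although the medians of Cel were 0.580 CPM in the Krt1-high and 0.475 CPM in the Krt1-low samples. Cel exceeded 10 CPM in 5 Krt1-low samples, with 967 CPM at the highest, and in 0 Krt1-high samples. These values thus rest on a few Krt1-low samples. Reg3b, also outside the lists, exceeded 10 CPM in 6 Krt1-low samples and in 0 Krt1-high samples. The lowered set also held immunoglobulin genes, among them Ighg2b (-3.54, SE 0.451, adjusted p = 6.17e-12) and Igha (-2.79, SE 0.446, adjusted p = 1.85e-08). Counts of such near-identical genes are uncertain.

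Skin and muscle RNA were separated by a fit over all 160 samples with log2 Krt1 and log2 Acta1 as numbers, which gives each gene a slope per doubling of each at a fixed level of the other. Over 20765 genes, 1854 (8.93%) rose and 1145 (5.51%) fell with Krt1, and 1063 (5.12%) rose and 244 (1.18%) fell with Acta1. Squamous genes on Krt1 and muscle genes on Acta1 restate the choice of marker. With Krt1 rose 26 of 27 cornified, 14 of 17 basal, 12 of 13 mucosal, 17 of 18 hair follicle and 10 of 12 sebaceous genes. With Acta1 rose 15 of 15 fast contractile, 15 of 16 calcium and energy and 9 of 11 regulator genes. Fast muscle genes rose with Krt1 in 6 of 15. Cornified genes rose with Acta1 in 14 of 27, hair follicle genes in 12 of 18 and sebaceous genes in 9 of 12, and these counts fell to 4, 1 and 3 without the 4 samples with Muc5b, Bpifb9b or Svs2 over 10 CPM. Without the same samples 1550 genes rose and 779 fell with Krt1, and 524 rose and 60 fell with Acta1.

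**Figure D5:**
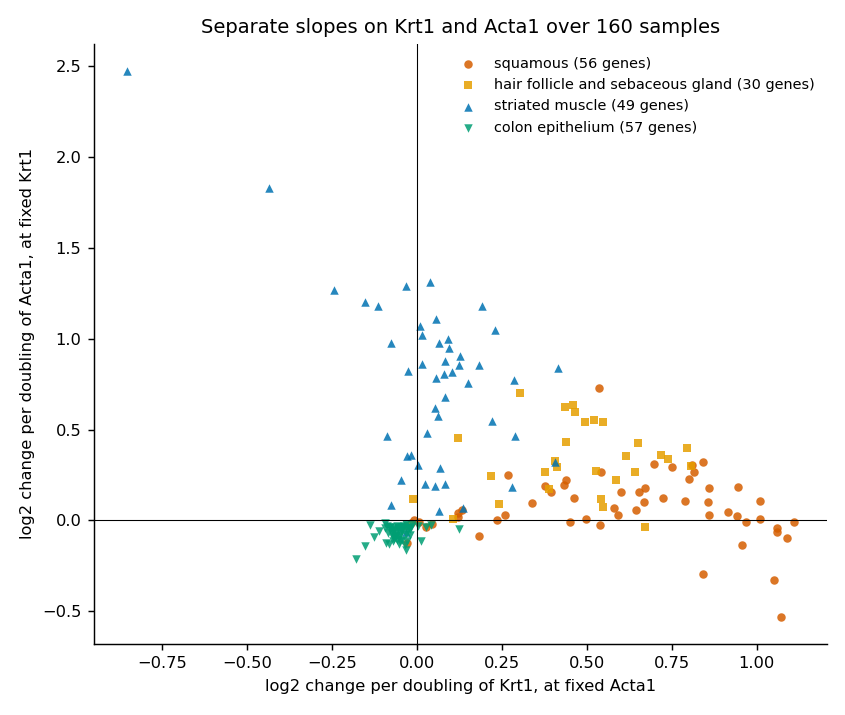
Slope of each gene on Krt1 at fixed Acta1 (x axis) and on Acta1 at fixed Krt1 (y axis), both as log2 change per doubling, from 1 fit over 160 samples, coloured by tissue. Striated muscle genes lie along the vertical axis, squamous genes along the horizontal axis, hair and sebaceous genes between, and colon epithelium genes near 0 on both.

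The Krt1 slope of Rptn was 1.11 and its Acta1 slope was -0.00624 (adjusted p = 0.954). For Ryr1 the Krt1 slope was 0.0664 (adjusted p = 0.188) and the Acta1 slope 0.978. Slopes of muscle genes on Acta1 restate the choice of marker and are given here without a p-value. Myh8 rose with both, by 0.444 per doubling of Krt1 and 0.885 per doubling of Acta1. Myh4 rose with Acta1 by 2.47 and fell with Krt1 by 0.852. The Krt1-low medians of Myh8 (0.133 CPM) and Myh4 (0 CPM) lay near the floor of 3 counts. No p-value is therefore given for their Krt1 slopes. The slopes of the Hoxc genes on Krt1 and Acta1 were 0.295 and 0.463 for Hoxc9, 0.120 and 0.817 for Hoxc10, 0.293 and 0.497 for Hoxc11 and 0.526 and 0.273 for Hoxc13. Whether the slopes of a gene differ was not tested.

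Of 80 colon epithelium genes, 19 fell with Krt1 and 1 fell with Acta1. Cdx2 fell with Krt1 by 0.152 per doubling (adjusted p = 0.00243), and its Acta1 slope was -0.138 (adjusted p = 0.173). The slopes of Slc9a3 passed for neither marker, at -0.180 for Krt1 (adjusted p = 0.107) and -0.210 for Acta1 (adjusted p = 0.347). The 1 gene that fell with Acta1 was Chga, a granule protein of enteroendocrine cells (-0.0839, adjusted p = 0.041), and without the 4 samples named above 0 did. Of the B and plasma cell genes 7 of 9 fell with Krt1, and 0 of 9 without those samples, with median slopes of -0.181 and -0.175.

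The difference was recomputed within each line. Called genes were 48.9% of those tested in Nckap1l, 32.6% in Dock2, 23% in Gpsm3 and 44.4% in Dok3, in that order from 15, 5, 3 and 11 Krt1-high samples. Of 18276 genes tested in all 4 lines, 2061 were called higher in every line and 1026 lower in every line. Of genes tested in both lines, 3400 were lower in both Nckap1l and Dok3, which is 70.2% of those lower in Nckap1l and 83.3% of those lower in Dok3. Genes lower in both Nckap1l and Dock2 were 50.3% and 88.7%, and in both Dock2 and Dok3 78.6% and 52.4%. Pairs with Gpsm3, the line with fewest Krt1-high samples, shared least, at 28% of the genes lower in Nckap1l, 41.8% of those in Dock2 and 30.8% of those in Dok3, and 84.8%, 72.6% and 80.1% of those lower in Gpsm3. The colonocyte median was -1.06 in Nckap1l, -0.49 in Dock2, -0.65 in Gpsm3 and -1.03 in Dok3, and the goblet median -1.12, -0.86, -0.94 and -1.42. A test of whether the Krt1-high difference itself differed between lines called 120 of 19866 genes (0.604%).

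Samples with Krt1 between 1 and 10 CPM hardly differed from the Krt1-low samples. Of 19284 genes tested, 8 were higher (0.0415%) and 2 lower (0.0104%). The higher genes included Myh8, at 0.441, 3.34 and 103 CPM in the samples between against 0, 0.133 and 7.20 CPM in the Krt1-low samples. Myh1 was 0.299, 2.67 and 68.9 CPM against 0, 0.176 and 10.3 CPM. The Krt1-low medians of both lay near the floor of 3 counts, so no p-value is given for them. Krt5, a keratin of the tissue that the Krt1 bounds select, was 0.359, 1.67 and 9.81 CPM in the samples between. None of the 80 colon epithelium genes was called in either direction there, with a median of -0.03.

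The comparison of knockout with wild type was then made within each line with and without the Krt1-high samples, by edgeR at an adjusted p under 0.05. In Dock2, 6 genes were called over all 42 samples (0.0333% of those tested, 5 lower and 1 higher in knockout), 90 without the 5 Krt1-high samples (0.502%, 86 lower and 4 higher) and 49 with log2 Krt1 and Acta1 as covariates. The genes lower in Dock2 knockout without the Krt1-high samples were led by Cr2, a complement receptor of follicular B cells (-1.68, SE 0.248, adjusted p = 0.000978). Cr2 was already called over all samples (-1.53, adjusted p = 0.0129). Fcer2a, the low-affinity IgE receptor of B cells, was also lower (-1.11, SE 0.188, adjusted p = 0.00338, against -0.92 and 0.124 over all samples). The gene raised most clearly was Ang4, an antimicrobial protein of the gut (2.61, SE 0.408, adjusted p = 0.00164, against 2.59 and 0.00169 over all samples). In Nckap1l, 1 gene was called over all samples (0.00526%), 0 without the Krt1-high samples and 32 with the covariates, and genes at an unadjusted p under 0.05 numbered 877, 2549 and 1503. In Gpsm3 these counts of called genes were 1 (0.00569%), 2 (0.0114%) and 3. In Dok3 they were 0 (0%), 0 and 2, with 386, 546 and 374 genes at an unadjusted p under 0.05. The Dock2 groups were 17 knockout and 20 wild type without the Krt1-high samples, of which 4 were wild type and 1 knockout.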

How the data were processed

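RNA of the distal colon of 160 mice was sequenced by the authors as single reads from ribosome-depleted libraries (KAPA Stranded RNA-Seq with RiboErase). The deposited files hold 1 raw count per gene and sample, made by the authors with STAR and featureCounts of Subread on mm10, according to the submitters' processing notes. The tool versions and the strand setting of the counting are not given in the sources used here, so genes that overlap an antisense gene are uncertain. The counts are not normalized. Gene names and positions came from GENCODE vM21 (GRCm38), which named 37693 of 39179 gene identifiers (96.2%, with 99.67% of all counts). Promoter sequences came from RefSeq (GRCm38.p6).

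Krt1 and Acta1 CPM were computed from the file totals. A floor of 3 counts corresponds to 0.15 to 0.69 CPM, and such limits cover counting error only. Counts were normalized by TMM, filtered by filterByExpr and tested in R 4.3.3 with edgeR 4.0.16 (quasi-likelihood test), with line and genotype as covariates. P-values were adjusted over all genes tested (Benjamini-Hochberg, threshold 0.05). In the comparisons by Krt1, Krt1 was left out of the counts of called genes, and in the slope fit also Acta1. The slope fit used log2(CPM + 0.5) of Krt1 and Acta1. Knockout and wild type were compared within a line, with sex as a covariate in Nckap1l and Dock2. Shares were compared by Fisher's exact test, and correlations by 100000 permutations, or by all permutations under 10 samples. TPM were computed from the counts and the summed exon length of each gene.

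Samples were grouped by the labels for line and genotype, and by Krt1 as the text describes. Each sample carries its own number in the labels and was taken as 1 mouse, and runs of these numbers within a line served as blocks. Over 1569 pairs within groups, the smallest chi-square per gene was 4.01, so every pair differed beyond sampling noise. In 5 samples the sex markers went against the label, 0 of them Krt1-high. The members and gene lists were chosen with earlier results of these data known. Named were, per list, the 3 members with the smallest adjusted p and the most abundant member in either group, all Hox and driver genes tested, and outside the lists the 10 genes raised and the 10 lowered most at a mean CPM of at least 5, and the 5 leading genes of each slope and direction. Other genes, namely Actg2, Ascl2, Ckm, Cox7a1, Cr2, Defb6, Fcer2a, Ang4, Krt6a, Krt14, Krt16, Krt19, Krt20, Lgr5, Muc2, Myh1, Myh2, Myh4, Myh7, Scnn1b, Scnn1g, Slc26a3, Slpi, Trp63 and those that mark the samples that stood apart, were named after their values were seen. Some genes that these rules select are not reported here.

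On simulated counts of 19609 genes with 200 changed 2-fold between Krt1-high and Krt1-low samples, edgeR, limma-voom and DESeq2 each recovered 100% of the changed genes, and 3.8%, 7% and 6.1% of their calls were false. On 20309 genes, Krt1 slopes of 0.2 and -0.2 were recovered in 99% and 98% of changed genes. The simulated counts had the same dispersion for all genes and no effects of line, genotype or outlying samples. Only genes with a mean CPM of at least 1 were changed, and far fewer than were called in the data. These rates therefore do not carry over to the comparisons made here. The alternatives were limma-voom, which the study used (limma 3.58.1), a DESeq2 fit (1.42.0), RLE size factors, library totals, other filters, cuts and covariates, and sets of samples left out. The correlation within females, library totals, fits within lines, the Acta1 cut of 100 CPM, and leaving out the first Nckap1l run or the 4 samples with Muc5b, Bpifb9b or Svs2 over 10 CPM were added after seeing the data.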

Additional observations from a re-analysis of the deposited data

Results flagged for a closer look

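Among 6 checks for an outlying sample, 5 found one. All 5 were on Krt1, which set the groups, or on Acta1, which was high in the same samples. The checks were thus not independent of the grouping or of each other, and no rate by chance is given. Nckap1l knockout 8 and Nckap1l wild type 15 were the only Krt1-high samples of their runs. Dock2 knockout 13 stood above the other Krt1-high Dock2 samples at 2657 CPM of Krt1. Nckap1l knockout 8 stood apart in the second run of Nckap1l numbers at 2977 CPM of Krt1 and 1393 CPM of Acta1, and Nckap1l wild type 15 in the third run at 150 CPM of Krt1 (149.6) and 38.9 CPM of Acta1 (38.85).

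The Krt1-high difference itself differed between lines for 8 named genes. Pgr (adjusted p = 8.38e-10), Bpifb9b (adjusted p = 5.62e-08), Muc5b (adjusted p = 1.1e-05) and Agtr2 (adjusted p = 0.00943) were raised in few samples. Muc5b exceeded 10 CPM in 2 Krt1-high samples, Pgr in 3 and Bpifb9b in 1, all female, and the highest Agtr2 value was 6.94 CPM in Nckap1l wild type 7, also female. Cel (adjusted p = 0.0333) and Pnliprp1 (adjusted p = 0.0311) were high in a few Krt1-low samples, and the others were the muscle calcium pump Atp2a1 (adjusted p = 0.02) and the fatty acyl reductase Far2 (adjusted p = 0.049).

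The samples with Krt1 between 1 and 10 CPM, which the main comparison leaves out, had 8 genes higher than in the Krt1-low samples. The log2 differences were 3.95 for Myh8, 3.38 for ENSMUSG00000081977, 2.91 for Myh1, 2.11 for Krt5, 1.2 for Gm14303, 1.02 for Lgals7, 0.69 for Elovl4 and 0.63 for Gm26315. Of these, Myh8, Myh1, ENSMUSG00000081977, Krt5, Elovl4 and Lgals7 had medians in the Krt1-high samples of 1757, 1121, 830.0, 678, 329 and 149 CPM, and Gm14303 and Gm26315 of 6.38 and 1.16 CPM.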

How the results depend on the processing

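Outside the fits within lines, the counts of genes higher and lower in the Krt1-high samples stayed within 1.5 times 6462 and 6726 under every alternative run, and ranged from 5657 to 8053 and from 5430 to 7493. With fewer samples, 3460 genes were higher and 2838 lower within Dock2, 2935 and 1635 within Gpsm3 and 4125 and 4222 within Dok3. With the inflammation mean added, 1852 genes fell with Krt1, 381 fell with Acta1 and 183 differed between lines. Without the 4 samples with Muc5b, Bpifb9b or Svs2 over 10 CPM, 524 genes rose and 60 fell with Acta1. The cause was not tested. Knockout against wild type gave 0, 32 and 21 genes in Nckap1l, 90, 49 and 15 in Dock2 and 2, 3 and 15 in Gpsm3, without the Krt1-high samples, with log2 Krt1 and Acta1 added and with a mean CPM of at least 1, and 2 and 8 in Dok3 under the last pair. With Acta1 of 10 CPM or more in place of Krt1, the share in knockout minus wild type was -5.0 points in Gpsm3 and that in females minus males was 16.8 points in Dock2, against 5.0 and -3.6 points. Grouping by Acta1 below 1 CPM could not be run, since no sample lay there.

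Of 4318 values for 168 named genes under 26 settings, 4185 kept their direction and side of the threshold, 110 lost the call, 11 gained it and 12 changed sign. Those that changed sign were Cxcl5 (-1.46) and Csf3r (-0.55) within Gpsm3, Csf3r (-0.01), S100a9 (0.64), Nckap1l (-0.28) and Aif1 (-0.33) with the inflammation mean, S100a9 (3.2) with limma-voom, Il1rn (-0.04) and Reg3b (0.25) within Dock2, Cel (0.51) within Gpsm3, and Bpifb9b without Dock2 (-0.26) and without the 4 samples (-0.02). The median of all genes shifted by -0.01 under TMM and RLE and by -0.02 under library totals. No paired analysis was possible because replicate numbers were given in accession order and pair no samples. Depth limited genes under 3 counts a library, which covers most skin genes in Krt1-low samples.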

Other observations

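Among the crypt genes, 2 of the 4 called higher differed by over 2-fold. Notum, a Wnt inhibitor, was 0.0651 CPM at the lowest, 0.451 at the median and 1.62 at the highest in the Krt1-high samples against 0, 0.0589 and 0.422 CPM in the Krt1-low samples and passed the filter on low counts through the Krt1-high samples. Cd44, a hyaluronan receptor of crypt and many other cells, was 141, 278 and 684 CPM against 47.8, 105 and 850.3 CPM (log2 difference 1.11, SE 0.163, adjusted p = 1.44e-09). Ascl2, a stem cell transcription factor, was lower in 34 of 34 Krt1-high samples than the Krt1-low median (log2 difference -1.05, SE 0.198, adjusted p = 1.31e-06).

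The balance of moist and cornified epithelium varied among Krt1-high samples. The log2 ratio of Krt13 to Krt10 was 2.13 in Dock2 wild type 15, 1.82 in Nckap1l wild type 15 and 1.03 in Dock2 knockout 13, and -3.2 in Dok3 wild type 19 and -3.18 in Gpsm3 wild type 10. The last of these also held 165 CPM of Alb, the liver albumin, where the Krt1-low samples held at most 3.54 CPM.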
